A study of Homo sapiens with 4 samples.

Results

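A set of 10 genes for amino acid transporters of the plasma membrane was followed in HCT116, an established line from a human colorectal carcinoma. The cells had received 30 µM HJ-23 for 24 hours, or as controls the solvent, DMSO at 0.1%, for the same time. The 10 genes were SLC7A5, SLC3A2, SLC7A11, SLC7A1, SLC1A4, SLC1A5, SLC38A1, SLC38A2, SLC6A9 and SLC43A1. They were chosen by name from the 20263 genes in the count tables, with earlier results of these data known. All 10 had enough counts to be tested. The submitters describe HJ-23 as derived from piperine, and the treatment field of the treated libraries reads HJ-25 where their titles read HJ-23, so the name in the titles is used. All cells carried the genotype label WT. Each group had 2 libraries of bulk RNA, with 34406649 and 34831207 counts in the HJ-23 libraries and 29769568 to 31120459 counts in the DMSO libraries. The labels do not say that replicates are separate cultures, and p-values thus reflect differences between libraries that may be technical. In bulk RNA a change in the number of cells that make a transcript and a change in the amount per cell cannot be told apart.

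The epithelial markers EPCAM, KRT8, KRT18, KRT19 and CDH1 were present in every library, with EPCAM at 272.3 and 265.8 CPM in HJ-23 and 271.0 and 253.9 CPM in DMSO (CPM, the count scaled to a common library size). CDH17, CEACAM5 and CEACAM6, also markers of intestinal epithelium, stood at 0.310 CPM or less in every library. Of 10 markers of blood, endothelial and stromal cells, PTPRC, CD3E, COL1A2, DCN and LUM had a count of 0 in all 4 libraries and CD14, PECAM1, COL3A1 and VWF were at 1.25 CPM or less. The exception was the collagen gene COL1A1, at 55.1 and 60.0 CPM in HJ-23 and 63.3 and 61.1 CPM in DMSO.

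Amino acids cross the plasma membrane through carriers that differ in what they move and in what drives them. Some bring neutral amino acids in together with sodium, as SLC38A2 does, while others exchange one amino acid for another, as SLC7A5 does with leucine entering and glutamine leaving. Many of their genes are transcribed more when the factor ATF4 is made, which happens when amino acids run short or when another stress leads to phosphorylation of eIF2-alpha. ATF4 binds, with a partner of the C/EBP family, to sites with the core TGATGNAA, and the antioxidant factor NRF2, which also acts on SLC7A11, binds sites with the core TGACNNNGC.

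Windows around RefSeq transcription starts (build GRCh38.p14, 250 bases before and 50 after) were found by symbol for 9 of the 10 genes, all but SLC7A11, with 16 windows in all. TGATGNAA, read on both strands, was in 5 of these 16 windows, against 3.62% of all 35116 windows, and in at least 1 window of 5 of the 9 genes, against 4.46% of 27305 genes. TGACNNNGC was in 4 of the 16 windows, against 13.3% of all windows, and in 4 of the 9 genes, against 16.1% of genes. The shares of genes are not alike in windows, with 16 for these 9 genes and 35116 for the 27305. The 9 genes thus had more windows each on average, which gives more room for a match. The genes were also chosen by name with earlier results known, so contrasts with all windows or genes may follow in part from that choice. For SLC1A4 the TGATGNAA match was in the second window and for SLC1A5 in the third, with none in their first. The 2 motifs did not overlap in any of these windows. The last 150 bases, 100 before the start and 50 after it, are shown for the 5 windows with TGATGNAA and for SLC7A5, the gene with the largest log2 fold change of the 10 in the fit without GC correction, with both motifs in capitals.
SLC3A2, chr11:62881599-62881748, plus strand: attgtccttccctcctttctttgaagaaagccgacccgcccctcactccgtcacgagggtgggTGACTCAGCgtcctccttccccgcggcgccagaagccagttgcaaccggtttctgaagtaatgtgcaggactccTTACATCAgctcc
SLC7A1, chr13:29595639-29595788, minus strand: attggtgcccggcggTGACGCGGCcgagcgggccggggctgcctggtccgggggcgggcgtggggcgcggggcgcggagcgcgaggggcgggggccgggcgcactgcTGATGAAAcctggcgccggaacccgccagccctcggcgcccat
SLC1A4, chr2:64989299-64989448, plus strand: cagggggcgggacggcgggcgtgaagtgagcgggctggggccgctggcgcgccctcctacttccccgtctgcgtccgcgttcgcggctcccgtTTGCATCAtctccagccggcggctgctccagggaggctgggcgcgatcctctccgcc
SLC1A5, chr19:46784765-46784914, minus strand: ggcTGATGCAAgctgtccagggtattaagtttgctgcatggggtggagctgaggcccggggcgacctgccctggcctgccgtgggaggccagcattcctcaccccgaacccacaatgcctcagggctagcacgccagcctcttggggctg
SLC38A1, chr12:46266467-46266616, minus strand: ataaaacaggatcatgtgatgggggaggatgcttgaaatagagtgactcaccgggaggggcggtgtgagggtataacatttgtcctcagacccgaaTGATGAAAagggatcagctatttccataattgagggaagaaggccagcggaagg
SLC7A5, chr16:87869458-87869607, minus strand: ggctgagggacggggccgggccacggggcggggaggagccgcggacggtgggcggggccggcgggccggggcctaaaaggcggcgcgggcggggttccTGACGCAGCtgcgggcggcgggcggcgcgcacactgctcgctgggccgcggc
In SLC3A2 and SLC1A4 the capitals TTACATCA and TTGCATCA are TGATGNAA read on the other strand, at position 38 (counted from 1 at the start) and 7 bases before the start. SLC7A1 and SLC38A1 had TGATGAAA close to the start, at position 8 and 4 bases before it, and the third window of SLC1A5 had TGATGCAA 97 bases before it. SLC7A5 had no TGATGNAA in its window and had TGACGCAGC across its start, while SLC3A2 had TGACTCAGC 37 bases before the start and SLC7A1 had TGACGCGGC 85 bases before it. The remaining match, in the second window of SLC1A5, lay 111 bases before the start, outside the stretch shown. SLC38A2, SLC6A9 and SLC43A1 had neither motif in their windows. A match to these letters is a description of the sequence, and no match says only that the letters are not in this window.

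In HJ-23-treated cells 9 of the 10 transporters were higher than in DMSO-treated cells in both libraries, and the tenth, SLC38A1, overlapped. The summed level of the 10 genes was 3249 and 3502 CPM in HJ-23 and 1920 and 1799 CPM in DMSO, a ratio of the means of 1.82. Log2 fold changes ran from 0.10 for SLC38A1 to 1.37 for SLC7A5 with a median of 0.95, beside a median of 0.01 over the 14062 genes tested. Of all genes tested, 24.8% had both values in HJ-23 above both in DMSO and 21.2% had both below. The 10 genes, and the gene lists further below, were chosen with earlier results of these data known. Contrasts with all genes or between lists, here and below, may follow in part from that choice.

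None of the 10 passed edgeR's quasi-likelihood test at an adjusted p of 0.05 over all genes, where 8 genes, or 0.0569% of those tested, were called higher and 4, or 0.0284%, lower. At an unadjusted p below 0.05 edgeR had 9 of the 10 higher and 0 lower, beside 6.77% of all genes tested higher and 5.25% lower. DESeq2, which called 1.19% of the genes it adjusted higher and 1.11% lower, called 7 of the 10 higher and 0 lower, all but SLC7A1, SLC38A1 and SLC38A2. With a correction for each library's trend with GC content and transcript length edgeR called SLC7A11 higher, beside 0.135% of all genes.

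**Figure D1:**
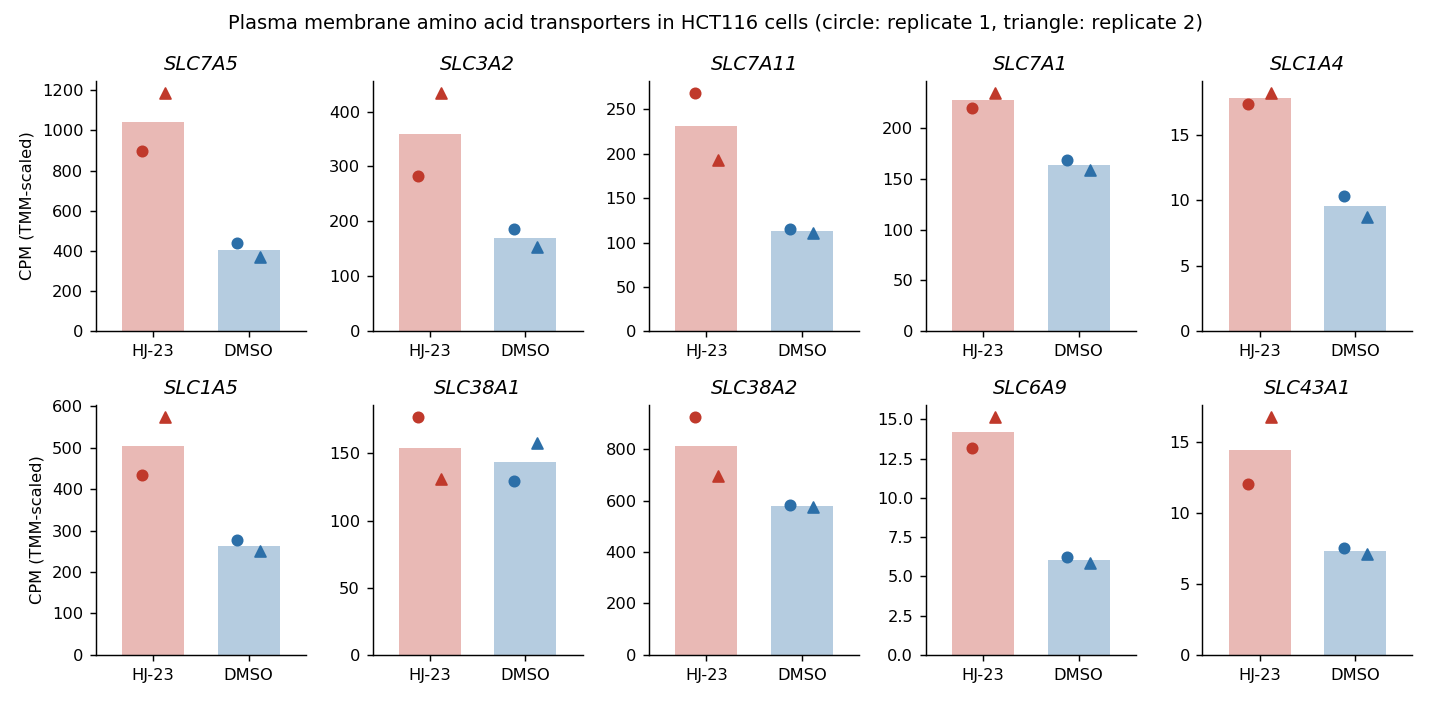
Levels of the 10 transporters in CPM (vertical axes, each from 0) in HJ-23 and DMSO libraries; bars are means of 2 libraries, circles replicate 1 and triangles replicate 2. For 9 genes both HJ-23 points lie above both DMSO points, and for SLC38A1 they overlap.

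SLC3A2 (ENSG00000168003, chromosome 11) encodes the CD98 heavy chain, a glycoprotein with no transport path of its own that carries light chains such as SLC7A5 and SLC7A11 to the cell surface. It was at 283.2 and 433.9 CPM in HJ-23 and at 185.3 and 152.8 CPM in DMSO. The groups were apart, and the HJ-23 libraries differed more from each other than the DMSO libraries did. The log2 fold change was 1.08 (SE 0.23, 95% interval 0.51 to 1.66, edgeR adjusted p = 0.233, DESeq2 adjusted p = 0.00357). Leaving out HJ-23 replicate 2 gave 0.72, and leaving out HJ-23 replicate 1 gave 1.34.

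SLC7A5 (ENSG00000103257, chromosome 16) encodes LAT1, the light chain that exchanges leucine and other large neutral amino acids and thereby feeds the mTORC1 pathway. It was at 897.4 and 1187 CPM in HJ-23 and at 437.1 and 370.6 CPM in DMSO. Even the lower HJ-23 library was above the higher DMSO library by more than the SD of either group, 204.7 CPM in HJ-23 and 47.0 CPM in DMSO. HJ-23 over DMSO was 2.58-fold, or 1.37 on the log2 scale (SE 0.19, 95% interval 0.90 to 1.83), and 0.747% of the genes tested had a larger one. The unadjusted p was 3.57e-04, rank 41 of 14062 genes (edgeR adjusted p = 0.123, DESeq2 adjusted p = 3.40e-07). The pseudogenes SLC7A5P1 and SLC7A5P2 of GENCODE 29 are not rows of the tables, so that reads shared with them leave the level of SLC7A5 uncertain.

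SLC7A11 (ENSG00000151012, chromosome 4) encodes xCT, the light chain that imports cystine in exchange for glutamate and so supplies cysteine for glutathione. It was at 268.7 and 193.2 CPM in HJ-23 and at 115.7 and 111.0 CPM in DMSO. Here HJ-23 replicate 1 was the higher library, the reverse of SLC3A2 and SLC7A5. Its log2 fold change was 1.03 (SE 0.19, 95% interval 0.56 to 1.49, edgeR adjusted p = 0.206, DESeq2 adjusted p = 9.44e-04). With the GC and length correction it was 1.23 (SE 0.12) and passed (edgeR adjusted p = 0.0458).

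Per base of the longest annotated transcript, SLC7A5 had 1.55 and 1.34 times the level of SLC3A2 in the HJ-23 libraries and 1.16 and 1.19 times in the DMSO libraries. With the median transcript length of each gene the same ratios were 0.475 and 0.410 in HJ-23 and 0.354 and 0.363 in DMSO. Which of the genes was higher thus rests on the length taken. The median is over all annotated transcripts of a gene, short ones included. It was 597 bases for SLC3A2, whose longest transcript has 2222, and 3983 for SLC7A5, whose longest has 4537. The median may thus overstate the level of SLC3A2 per base. A change of length multiplies all 4 ratios alike and is no second comparison of the groups. The ratio of SLC7A11 to SLC3A2 overlapped between the groups, at 0.219 and 0.103 in HJ-23 and 0.144 and 0.167 in DMSO with the longest transcripts. These ratios are a description, with no test.

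SLC7A1 (ENSG00000139514, chromosome 13) encodes CAT1, the carrier of arginine, lysine and ornithine, and works without SLC3A2. It was at 219.9 and 234.8 CPM in HJ-23 and at 168.4 and 159.0 CPM in DMSO. The groups did not overlap and the libraries of each group were close to each other, with SDs of 10.5 CPM in HJ-23 and 6.67 CPM in DMSO. HJ-23 over DMSO gave a log2 fold change of 0.47 (SE 0.13, 95% interval 0.15 to 0.80, edgeR adjusted p = 0.309, DESeq2 adjusted p = 0.173), and 9.32% of genes had a larger one.

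SLC43A1 (ENSG00000149150, chromosome 11) encodes LAT3, a carrier of branched-chain amino acids and phenylalanine that needs no heavy chain. It was at 12.04 and 16.8 CPM in HJ-23 and at 7.56 and 7.14 CPM in DMSO. The groups did not overlap, and the HJ-23 libraries were the more spread. Its log2 fold change was 0.97 (SE 0.23, 95% interval 0.42 to 1.52, edgeR adjusted p = 0.254), and DESeq2's adjusted p of 0.04998 was just under the threshold.

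SLC1A5 (ENSG00000105281, chromosome 19) encodes ASCT2, a sodium-dependent exchanger and a main entry route for glutamine in many cancer cells. It was at 433.3 and 574.6 CPM in HJ-23 and at 276.9 and 249.8 CPM in DMSO. Its relative SLC1A4 (ENSG00000115902, chromosome 2) encodes ASCT1, which exchanges alanine, serine, cysteine and threonine, and was at 17.4 and 18.2 CPM in HJ-23 and at 10.3 and 8.75 CPM in DMSO. In both genes the groups were apart, and the HJ-23 libraries were close to each other for SLC1A4 but not for SLC1A5. The log2 fold changes were alike, 0.94 for SLC1A5 (SE 0.18, edgeR adjusted p = 0.218, DESeq2 adjusted p = 0.00223) and 0.90 for SLC1A4 (SE 0.18, edgeR adjusted p = 0.232, DESeq2 adjusted p = 0.0227).

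SLC38A2 (ENSG00000134294, chromosome 12) encodes SNAT2, the sodium-coupled carrier of alanine, glutamine and other small neutral amino acids that cells make in larger amounts when amino acids are short. It was at 926.6 and 697.3 CPM in HJ-23 and at 582.7 and 576.2 CPM in DMSO. The DMSO libraries nearly coincided, and HJ-23 replicate 1 was well above HJ-23 replicate 2. HJ-23 over DMSO gave a log2 fold change of 0.49 (SE 0.17, 95% interval 0.06 to 0.91, edgeR adjusted p = 0.376, DESeq2 adjusted p = 0.293). Leaving out HJ-23 replicate 1 gave 0.25, and leaving out HJ-23 replicate 2 gave 0.65.

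SLC38A1 (ENSG00000111371, chromosome 12) encodes SNAT1, the closest relative of SLC38A2, which imports glutamine with sodium. It was at 177.3 and 130.7 CPM in HJ-23 and at 129.5 and 157.7 CPM in DMSO. The groups overlapped, with the highest and the next to lowest values both in HJ-23. The log2 fold change was 0.10 (SE 0.20, edgeR adjusted p = 0.860, DESeq2 adjusted p = 0.952). Its 95% interval, -0.38 to 0.59, leaves room for a difference as large as that of SLC38A2, and the value was -0.15 without HJ-23 replicate 1 and -0.03 without DMSO replicate 1. Whether the log2 fold changes of SLC38A1 and SLC38A2 differ was not tested.

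SLC6A9 (ENSG00000196517, chromosome 1) encodes GLYT1, the sodium- and chloride-dependent glycine transporter. It was at 13.2 and 15.2 CPM in HJ-23 and at 6.21 and 5.88 CPM in DMSO, from 468 and 522 counts in HJ-23 and 193 and 172 counts in DMSO. The groups were apart, with SDs of 1.39 CPM in HJ-23 and 0.236 CPM in DMSO. The log2 fold change was 1.23 (SE 0.19, 95% interval 0.77 to 1.69, edgeR adjusted p = 0.140, DESeq2 adjusted p = 9.73e-04). In the fit without GC correction it was the next largest after that of SLC7A5 among the 10, and 1.02% of genes had a larger one. With that correction SLC7A11 was above SLC6A9. CCDC24, whose exons overlap 404 of the 5159 exon bases of SLC6A9 on the other strand, was at 19.9 and 29.7 CPM in HJ-23 and at 22.2 CPM in both DMSO libraries, and without a stated strand setting reads from the overlap cannot be told apart. The same holds for antisense genes that are not rows of the tables, which overlap 780 of 3332 exon bases of SLC1A5 (AC008622.2), 865 of 9645 of SLC7A11 (SLC7A11-AS1) and 271 of 4745 of SLC7A5 (AC126696.2).

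**Figure D2:**
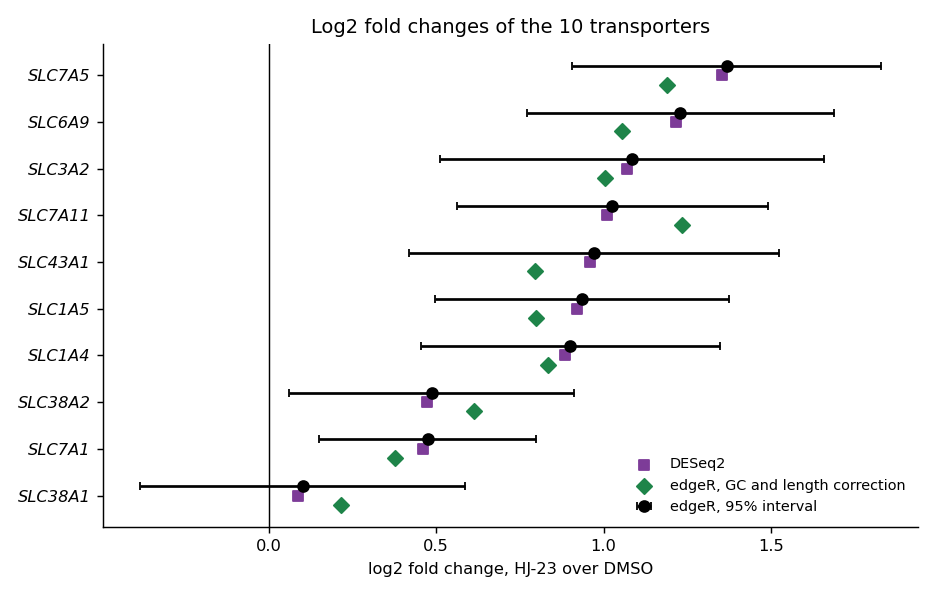
Log2 fold changes of HJ-23 over DMSO (horizontal axis) for the 10 transporters, ordered by the edgeR value; circles with bars are edgeR values with 95% intervals, squares DESeq2 and diamonds edgeR with the GC and length correction. The edgeR interval includes 0 for SLC38A1 alone of the 10, and the correction raises SLC7A11, SLC38A1 and SLC38A2 and lowers the other 7.

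Per kilobase, the genes fell into the same 3 ranges of ranks whichever transcript length was used. SLC38A2, SLC3A2, SLC7A1, SLC1A5 and SLC7A5 held ranks 1 to 5 in the mean of the HJ-23 libraries. SLC38A1 and SLC7A11 held ranks 6 and 7, and SLC43A1, SLC1A4 and SLC6A9 ranks 8 to 10. These ranges are cuts of an order and not groups alike in level. With the longest transcript the HJ-23 mean of SLC7A1 was 30.9 CPM per kilobase, near SLC7A11 at 23.9 and far below SLC3A2 at 161.4. With the median length SLC7A1 was at 313.2 and SLC7A11 at 44.2. The median length was 726 bases for SLC7A1 and 723.5 for SLC38A2, against 7347 and 4888 for their longest transcripts. For SLC7A11 it was 5221, against 9645. Values by the median length may thus be too high for genes with many short annotated transcripts. With the longest transcript SLC7A5 was at 229.7 ± 45.1 CPM per kilobase in HJ-23 and 89.0 ± 10.4 in DMSO (SD, n = 2 per group). On that scale SLC38A2 was at 166.1 ± 33.2 CPM per kilobase in HJ-23 and 118.5 ± 0.947 in DMSO. SLC6A9 was at 4.53 ± 0.445 CPM per kilobase in HJ-23 and 1.93 ± 0.0753 in DMSO, and SLC1A4 at 3.07 ± 0.0996 in HJ-23 and 1.64 ± 0.189 in DMSO. On the longest transcripts SLC7A5 had rank 1 in HJ-23 and rank 3 in DMSO, where SLC38A2 had rank 1. In DMSO SLC7A5 did not differ beyond its spread from SLC1A5, at 91.4 ± 6.64 CPM per kilobase, so ranks 2 and 3 there are not separate. Within the top 5 this order does not carry over to the median transcript length, by which SLC38A2 had rank 1 and SLC7A5 rank 5 in both groups. With the longest transcripts SLC1A5, SLC38A2 and SLC3A2, at means of 174.9, 166.1 and 161.4 CPM per kilobase in HJ-23, did not differ beyond their spread.

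The 10 genes split by the library in which they were highest. In the HJ-23 group 7 were higher in replicate 2 than in replicate 1 and 3, SLC7A11, SLC38A1 and SLC38A2, were lower. These 3 had a GC content (median over the gene's transcripts) of 38.6%, 42.6% and 38.4%, and the other 7 had 53.9% to 60.9%, around a median of 50.9% over the genes tested. On the log2 scale replicate 2 stood 0.41 to 0.48 below replicate 1 for the 3 genes low in GC and 0.066 to 0.62 above it for the 7 others. In DMSO, 9 of the 10 were lower in replicate 2 and SLC38A1 was higher, by 0.28.

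Over all 14047 tested genes with a GC content, the log2 ratio of HJ-23 replicate 2 to replicate 1 had a Spearman correlation of 0.62 with it, the ratio of DMSO replicate 2 to replicate 1 one of -0.36, and the difference between the groups one of 0.37. These are correlations across genes of the same 4 libraries, and genes are not independent replicates. With the trend removed from each library, log2 fold changes were 1.19 for SLC7A5 (SE 0.13), 1.05 for SLC6A9 (SE 0.14), 1.00 for SLC3A2 (SE 0.18), 0.61 for SLC38A2 (SE 0.11) and 0.22 for SLC38A1 (SE 0.10). SLC7A11, at 1.23, was then above SLC7A5 and SLC6A9, and with HJ-23 replicate 2 left out it also was, at 1.22 against 1.13 for SLC7A5 and 1.10 for SLC6A9, so the order of the largest values is not fixed. The median of the 10 with the trend removed was 0.82, beside 0.0023 over all genes.

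**Figure D3:**
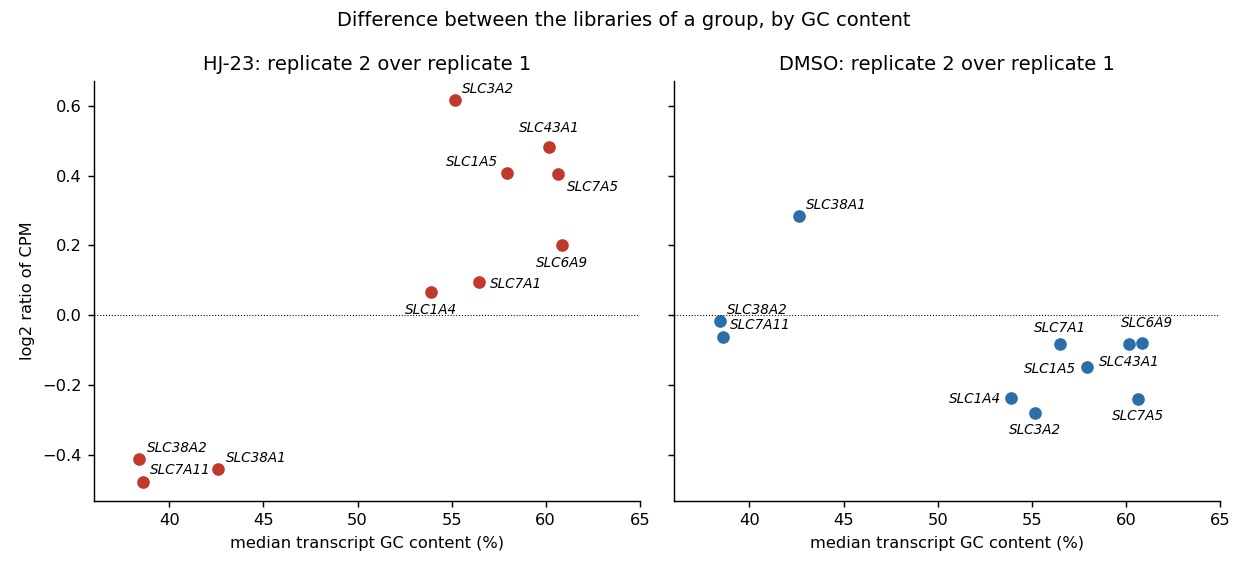
Log2 ratio of replicate 2 to replicate 1 (vertical axis) against the median transcript GC content in percent (horizontal axis) for the 10 transporters, HJ-23 on the left and DMSO on the right. In HJ-23 the 3 genes under 43% GC lie below 0 and the 7 above 53% lie above it, and in DMSO SLC38A1 alone is above 0.

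Of 28 other amino acid transporters of the plasma membrane 16 were tested, and 9 had a count of 0 in all 4 libraries. Positive log2 fold changes were found for 9 and negative ones for 7, with a median of 0.03 and a range of -0.60 to 0.82. SLC7A9, SLC1A2, SLC3A1 and SLC7A7, named here for their low levels, were at 1.41 CPM or less in every library. The value of -0.60 was that of SLC7A9 and is uncertain. At an unadjusted p below 0.05 edgeR had 2 of the 16 higher and 1 lower, and with adjustment over all genes edgeR and DESeq2 called 0. SLC43A2, the carrier LAT4 and the relative of SLC43A1, was at 28.2 and 20.3 CPM in HJ-23 and at 12.7 and 14.8 CPM in DMSO (log2 fold change 0.82, SE 0.22, edgeR adjusted p = 0.309, and 0.54 with HJ-23 replicate 1 left out). The taurine transporter SLC6A6 was at 49.1 and 61.3 CPM in HJ-23 and at 78.6 and 70.6 CPM in DMSO (log2 fold change -0.43, SE 0.17, edgeR adjusted p = 0.405). The other one with an unadjusted p below 0.05 was SLC7A2, a relative of SLC7A1, with a log2 fold change of 0.59 (SE 0.21), named after its value was seen.

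SLC7A8 and SLC7A6 encode other light chains that pair with SLC3A2. SLC7A8, or LAT2, was at 17.3 and 14.6 CPM in HJ-23 and at 15.8 and 12.8 CPM in DMSO. SLC7A6 was at 17.4 and 19.96 CPM in HJ-23 and at 17.9 and 32.3 CPM in DMSO. In both genes the groups overlapped, and without DMSO replicate 2 the log2 fold change was 0.04 for SLC7A6 and -0.01 for SLC7A8, against -0.43 and 0.16 with all libraries. Whether they differ from SLC7A5 or SLC7A11 in log2 fold change was not tested. The glutamate carriers SLC1A1 and SLC1A3, relatives of SLC1A5, had log2 fold changes of -0.20 and -0.40. The neutral amino acid carriers SLC6A17 and SLC38A5 had 0.38 and 0.37, with edgeR adjusted p-values of 0.451 to 0.630 for the 4. SLC6A17 was counted in the list of other plasma membrane transporters, though it is known mainly from synaptic vesicles. With HJ-23 replicate 2 left out SLC6A17 was at 0.19 and SLC38A5 at 0.23, and with DMSO replicate 2 left out SLC1A3 was at -0.21.

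Amino acid transporters of the lysosome had a median log2 fold change of 0.03 over 8 tested genes of 9, with 5 positive and 3 negative. Neither edgeR, adjusted or at an unadjusted p below 0.05, nor DESeq2 called any of them. MFSD12, the lysosomal cysteine importer, was at 104.6 and 129.6 CPM in HJ-23 and at 90.5 and 89.4 CPM in DMSO, and SLC36A4 was the lowest of the list, with a log2 fold change of -0.40. SLC38A7, which exports glutamine from the lysosome, had one of 0.40 (SE 0.18). With HJ-23 replicate 2 left out MFSD12 was at 0.19, against 0.38 with all libraries, and SLC36A4 at -0.26.

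Amino acid carriers of the mitochondrion had a median of 0.11 over 11 tested genes of 12, with 7 positive and 4 negative. Of these, edgeR called 0 with adjustment and 1 higher and 0 lower at an unadjusted p below 0.05, and DESeq2 called the same gene, the glutamate carrier SLC25A22. It was at 78.3 and 105.4 CPM in HJ-23 and at 55.9 and 52.7 CPM in DMSO (log2 fold change 0.76, SE 0.19, edgeR adjusted p = 0.275, DESeq2 adjusted p = 0.0442). The ornithine carrier SLC25A15 had a log2 fold change of 0.42 (SE 0.22) and the serine transporter SFXN1 one of -0.32 (SE 0.14). Leaving out HJ-23 replicate 2 gave 0.50 for SLC25A22 and 0.17 for SLC25A15.

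**Figure D4:**
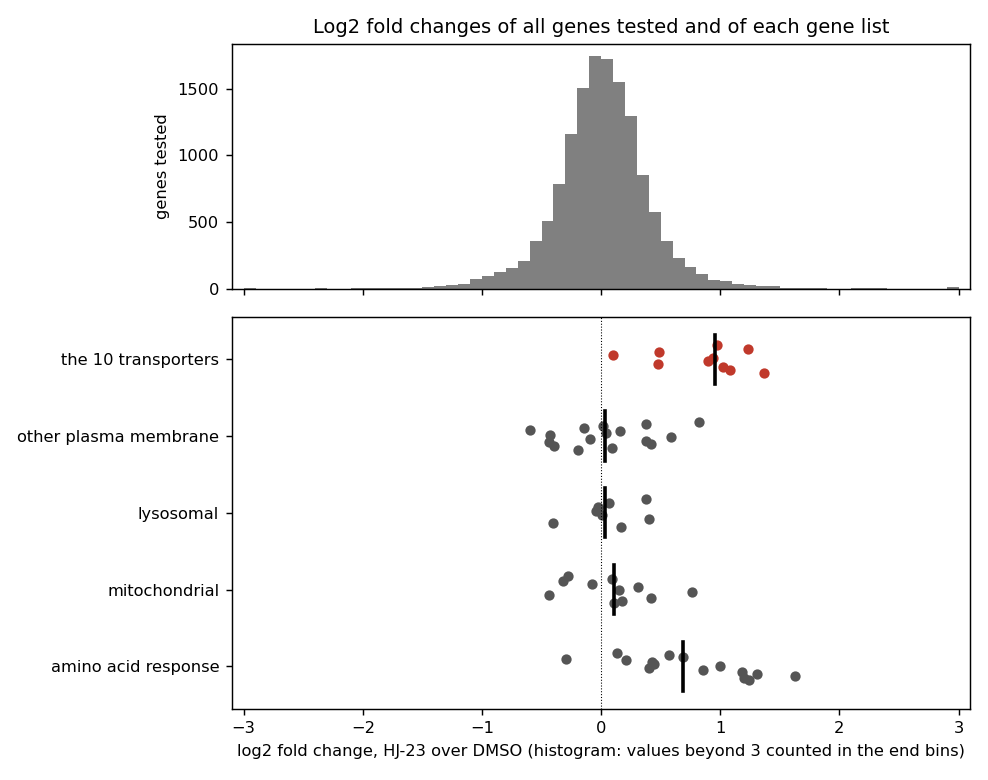
Number of genes tested by log2 fold change of HJ-23 over DMSO (upper panel) and the value of each tested gene of 5 lists (lower panel, points, with a vertical bar at each median). The 10 transporters lie between 0.10 and 1.37 with a median of 0.95, and the medians of the other plasma membrane, lysosomal and mitochondrial lists are 0.03, 0.03 and 0.11.

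Of 16 other genes of the amino acid response, the enzymes and stress genes that ATF4 also acts on, 15 were tested. Their median was 0.69, with 14 positive and 1 negative, and both HJ-23 libraries were above both DMSO libraries for 11 of them, beside the 24.8% of all genes given above. At an unadjusted p below 0.05 edgeR had 11 higher and 0 lower, with adjustment it called 0, and DESeq2 called 7 higher. ASNS, which makes asparagine, was at 443.1 and 446.7 CPM in HJ-23 and at 190.0 and 186.4 CPM in DMSO. Its log2 fold change was 1.24 (SE 0.13, edgeR adjusted p = 0.0650, DESeq2 adjusted p = 1.09e-10). With the GC and length correction edgeR's adjusted p for ASNS was 0.0494. SESN2, an inhibitor of mTORC1 that senses leucine, had a log2 fold change of 1.31 (SE 0.22). CHAC1, which degrades glutathione, was at 15.1 and 25.4 CPM in HJ-23 and at 8.69 and 4.37 CPM in DMSO. Its log2 fold change was 1.63 (SE 0.40, edgeR adjusted p = 0.278, DESeq2 adjusted p = 0.00598). It became 1.18 with HJ-23 replicate 2 left out and 2.21 with DMSO replicate 1 left out. Between the HJ-23 libraries SESN2 and CHAC1 were higher in replicate 2, and ASNS was nearly equal in both. TRIB3, also of this list and named after its value was seen, was lower in replicate 2, at 155.2 and 119.8 CPM. Over all genes the ratio of these 2 libraries went with GC content, as given above. SESN2 and CHAC1, at 59.5% and 61.8% GC, went with that trend, and TRIB3, at 62.0%, went against it. ASNS had 43.9% GC.

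Among factors known to act on genes of these transporters, ATF4 was at 962.3 and 1019 CPM in HJ-23 and at 644.1 and 608.1 CPM in DMSO (log2 fold change 0.66, SE 0.13, edgeR adjusted p = 0.229, DESeq2 adjusted p = 0.00963). DDIT3, the factor CHOP, was at 100.8 and 189.1 CPM in HJ-23 and at 86.3 and 63.2 CPM in DMSO, with a log2 fold change of 0.41 without HJ-23 replicate 2 against 0.96 with all libraries. NFE2L2, which encodes NRF2, had a log2 fold change of 0.41 (SE 0.21), and BACH1, a repressor at NRF2 sites, one of -0.39 (SE 0.20). Leaving out DMSO replicate 1 gave 0.19 for NFE2L2, and leaving out DMSO replicate 2 gave 0.63 for NFE2L2 and -0.24 for BACH1. EPAS1, the factor HIF2-alpha, had one of -0.19 (SE 0.13). MYC had one of -0.75 (SE 0.37), which became -0.33 with HJ-23 replicate 2 left out and -1.41 with HJ-23 replicate 1 left out. None of these factors passed edgeR's test with adjustment over all genes, ATF4 and DDIT3 had an unadjusted p below 0.05, and DESeq2 called ATF4. The part of these factors, and of GC content, in the levels of the transporters was not tested.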

How the data were processed

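RNA-seq counts per gene were deposited by the authors as whole numbers without normalization, as the values show, in 1 table per library with 20263 Ensembl gene identifiers. The submitters' processing notes list RSEM, HISAT2, Trimmomatic, FastQC and bedtools, with neither version nor role. Strand setting and genome build: not given in the sources used here. Of values from 1 to 8, even numbers made up 69.6% to 72.3% in each library, but 49.7% to 50.8% above 50, so that a count may be closer to a read than to a fragment. Groups and replicate numbers came from the titles. The members and gene lists were chosen with earlier results of these data known.

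A table of gene names gave symbols to 20148 identifiers, and GENCODE 29 gave 76 more. The test was that of edgeR 4.0.16 (R 4.3.3), with TMM scaling (factors 0.983 to 1.03), filterByExpr by group (14062 genes kept), robust dispersions and the legacy quasi-likelihood F-test, adjusted by Benjamini-Hochberg over the 14062 genes and called at 0.05. The biological coefficient of variation was 19.6%, with 2 residual and 3.98 prior degrees of freedom. For standard errors, log2 fold changes were divided by sqrt(F), and 95% intervals use the t distribution of the test. CPM is the count over the TMM-scaled library size. DESeq2 1.42.0, other scalings and filters, a replicate block, each library left out and a loess fit (span 0.3) of each library on GC content and log2 median transcript length from GENCODE 29 were alternatives. Besides the 10 members, the genes named are up to 8 other plasma membrane transporters and up to 3 genes of each of the lysosomal, mitochondrial and amino acid response lists with the largest absolute log2 fold change at a mean of at least 5 CPM, and the regulators ATF4, DDIT3, NFE2L2, BACH1, MYC and EPAS1; 1 other regulator and 1 overlapping gene are not reported here. Promoter windows are RefSeq's, build GRCh38.p14, and chromosomes are those of the RefSeq gene table.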

Additional observations from a re-analysis of the deposited data

How the results depend on the processing

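The count of the 10 transporters called higher was 0 with edgeR's quasi-likelihood test, 7 with DESeq2 and 1 with GC content and length corrected for, while it stayed at 0 with relative log expression scaling, with no filter and with a filter at 10 CPM (9 of 10 at an unadjusted p below 0.05 in each). Leaving out a library gave 0 to 3, with SLC7A5, SLC3A2 and SLC6A9 called without DMSO replicate 1 and SLC7A5 without DMSO replicate 2. None was called lower in any of these fits. Over all genes edgeR called 8 higher and 4 lower, against 161 and 150 with DESeq2, 19 and 12 after correction for GC content and length, 18 and 13 with no filter and 0 and 0 with the filter at 10 CPM (1253 at an unadjusted p below 0.05). Leaving out a library gave 0 to 112 higher and 0 to 161 lower, with 0 of both without HJ-23 replicate 1 or replicate 2 (3501 and 1377 at an unadjusted p below 0.05). A fit with 3 libraries assumes that the lone library of a group varies like the others. With the replicate block 5 of the 10 were called, and 136 genes higher and 158 lower. The labels do not pair the libraries, and the deviations of libraries with the same number had a correlation of -0.18 over 14062 genes. With the numbers crossed between the groups, an alternative chosen after seeing the data, 8 of the 10 were called, and 454 genes higher and 512 lower.

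Log2 fold changes of the 10 kept their direction in every fit except SLC38A1, which was -0.15 without HJ-23 replicate 1 and -0.03 without DMSO replicate 1 (range -0.15 to 0.28 with a library left out). Of the other genes named, SLC7A6 ran between -0.79 and 0.036 and SLC7A8 between -0.013 and 0.32 with a library left out, both turning without DMSO replicate 2. The cause of these differences was not tested. The summed level of the 10 moved by less than 1 SD with raw library totals or relative log expression scaling, and was 3249 to 3502 CPM in HJ-23 and 1799 to 1920 CPM in DMSO with 1 library left out. Ranks per kilobase within the ranges of ranks given above changed with the transcript length.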
